A study of Mus musculus with 12 samples.

Results

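The 10 genes described here encode precursors of neuropeptides found in spinal neurons. They are Npy, Sst, Tac1, Adcyap1, Penk, Cck, Nts, Calca, Cartpt and Gal, chosen by name and found by their gene symbol among the 39174 genes of each table. The study profiled total RNA from primary mouse motoneuron cultures of the CD-1 background, grown in microfluidic chambers in which neurites pass from a chamber with the cell bodies into a separate one. There were 6 axonal libraries, from the axonal compartment of Smn knockdown cultures, and 6 somatodendritic libraries, from the compartment with cell bodies and dendrites of Smn knockdown cultures. Smn encodes the survival motor neuron protein, whose loss causes spinal muscular atrophy. Both groups carry the knockdown, so the comparison is between compartments, and cultures without the knockdown were not analysed here. The sources used here do not give the age of the cultures or the knockdown agent, nor whether libraries of a group came from separate cultures. The p-values therefore measure the spread between these libraries, which may be partly technical.

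Neuropeptides are cut from larger precursor proteins in the secretory pathway, packed into dense-core granules and released along the neuron to act on G protein-coupled receptors. In the spinal cord many of them mark subsets of inhibitory and excitatory dorsal horn interneurons, and others are known from primary sensory neurons or from motoneurons. Their mRNAs are translated mainly in the cell body, where the rough endoplasmic reticulum lies, although axons also hold some precursor mRNAs.

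Levels are FPKM, fragments per kilobase of transcript relative to the mapped fragments of the library, as the authors deposited them, divided here by a scaling factor per library. The factors ranged from 0.635 to 1.48 in axonal libraries and from 0.948 to 1.36 in somatodendritic libraries. The deposited upper confidence bound gives the depth behind a value: taking it as 2 SD of a counting error above the FPKM, the implied number of fragments was whole within 0.02 for 24 of 30 values above 0 of the members with 1 transcript. The 6 others were all at 18.9 fragments or more, and numbers are given rounded. A single Npy fragment was worth 1.68 to 8.77 scaled FPKM in axonal libraries and 3.76 to 30.4 in somatodendritic libraries. Axonal replicate 1 was the deepest library, with 17350 genes above 0, and somatodendritic replicate 4 the shallowest, with 7448. Replicates 1 and 2 differed from replicates 3 to 6 in the share of FPKM on short non-coding RNA, which was 5.61% to 8.68% against 12.9% to 22.0% in axonal libraries and 6.18% to 6.67% against 15.7% to 20.9% in somatodendritic libraries. No label names a batch behind that split. Smn1, the gene targeted by the knockdown, was above 0 in 5 of 6 axonal libraries, at 0 to 56.2 scaled FPKM, and in 2 of 6 somatodendritic libraries, at 0 to 15.6.

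The labelled cell type was set against its markers. Chat, which makes acetylcholine, Mnx1, a transcription factor of motoneurons, and Aldh1a2 were listed at 0 in all 12 libraries. The 10 other motoneuron markers found were above 0 in at least 1 library. Among them, Isl1 was above 0 in 1 axonal and 3 somatodendritic libraries, Prph in 2 of each, and Ret in all 12. The summed level of the 13 motoneuron markers found was 32.0 to 60.7 scaled FPKM in axonal libraries and 43.8 to 68.6 in somatodendritic libraries, led by Gfra1, a receptor subunit for glial cell line-derived neurotrophic factor, and Nefh, the heavy neurofilament. The 10 spinal inhibitory neuron markers summed to 78.4 to 326.2 in axonal libraries and 167.0 to 315.0 in somatodendritic libraries. Gad1, which makes GABA, alone reached 30.5 to 150.02 in axonal libraries and 34.5 to 120.4 in somatodendritic libraries. The excitatory interneuron markers, among them the vesicular glutamate transporter Slc17a6, summed to 27.9 to 67.2 in axonal libraries and 58.1 to 97.3 in somatodendritic libraries. The summed inhibitory markers stood above the summed motoneuron markers in all 12 libraries. The lists hold different genes, 10 and 13 of them, so their sums do not give shares of cells. Which cells gave the RNA of the neuropeptide genes below was not tested. In bulk RNA, fewer cells of a type cannot be told apart from less RNA per cell.

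Npy, the precursor of neuropeptide Y, had the highest listed level of the 10 in each of the 6 axonal and each of the 6 somatodendritic libraries. In axonal libraries 1 to 6 it stood at 96.5, 51.9, 78.9, 84.5, 107.0 and 248.0 scaled FPKM, and in somatodendritic libraries 1 to 6 at 128.4, 114.1, 114.7, 30.4, 127.0 and 139.3. The groups overlapped: axonal replicate 6 is the highest of all 12 libraries, and somatodendritic replicate 4 the lowest. Apart from these, the axonal values, 51.9 to 107.0, lie below the somatodendritic ones, 114.1 to 139.3. These values rest on 57, 7, 9, 13, 13 and 46 implied fragments in axonal libraries 1 to 6, and on 34, 23, 17, 1, 19 and 20 in somatodendritic libraries 1 to 6. In somatodendritic replicate 4, Cck, Nts and Adcyap1 also had 1 fragment each, so the order of these genes there is not settled. In axonal replicate 3, Sst had 8 fragments beside the 9 of Npy. The means were 111.1 ± 69.6 in axonal libraries and 109.0 ± 39.6 in somatodendritic libraries (SD, n = 6 each). By mean level, Npy lay above 98.9% of protein-coding genes in axonal libraries and above 99.0% in somatodendritic libraries. The 95% counting interval of axonal replicate 6, 182.2 to 331.9, lies above the values of all 11 other libraries. It overlaps the intervals of some of them, such as that of somatodendritic replicate 6, 85.1 to 215.1.

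Sst, the precursor of somatostatin, which marks a large class of dorsal horn excitatory interneurons, came next. In axonal libraries 1 to 6 it stood at 54.1, 0, 66.3, 30.7, 38.9 and 25.5 scaled FPKM, and in somatodendritic libraries 1 to 6 at 20.8, 14.1, 38.2, 0, 25.3 and 26.3. It was listed above 0 in 5 of 6 libraries of each compartment, and the groups overlapped. The 0 in axonal replicate 2 allows a level of up to 21.0, and the 0 in somatodendritic replicate 4 a level of up to 86.2, taking 3 fragments as the limit. Its means were 35.9 ± 23.2 in axonal libraries and 20.8 ± 12.9 in somatodendritic libraries (SD, n = 6 each). Beyond axonal replicate 1, with 34 fragments, no library had more than 8.

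**Figure D1:**
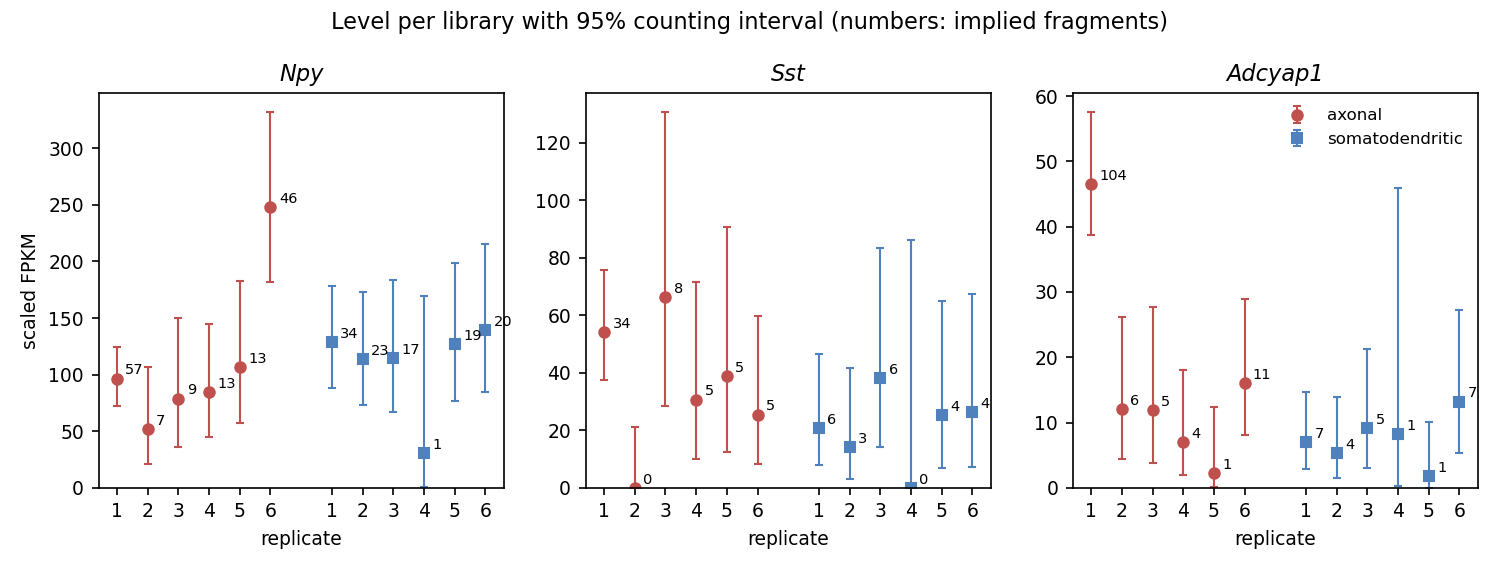
Levels of Npy, Sst and Adcyap1 in scaled FPKM (y axes) in the axonal (red circles) and somatodendritic (blue squares) replicates 1 to 6 (x axes). Bars are 95% counting intervals (for a value of 0, up to 3 fragments) and the printed numbers are implied fragments: Npy reached 248.0 in axonal replicate 6, and Adcyap1 46.5 in axonal replicate 1, while most intervals of Sst overlap.

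Npy, Sst and Cartpt, the precursor of the cocaine- and amphetamine-regulated transcript peptides, are shown by the 250 bases upstream of their RefSeq transcript start, because Sst and Cartpt were the members that hold the palindromic cyclic AMP response element. That element is the letters TGACGTCA, printed in capitals, and it binds CREB, the factor through which cyclic AMP and calcium act on transcription. The sequences are from RefSeq on GRCm38.p6 and run 5′ to 3′ on the gene's strand. Npy lies on the plus strand at chr6:49822460-49822709, Sst on the minus strand at chr16:23890845-23891094, and Cartpt on the minus strand at chr13:99900684-99900933.
Npy: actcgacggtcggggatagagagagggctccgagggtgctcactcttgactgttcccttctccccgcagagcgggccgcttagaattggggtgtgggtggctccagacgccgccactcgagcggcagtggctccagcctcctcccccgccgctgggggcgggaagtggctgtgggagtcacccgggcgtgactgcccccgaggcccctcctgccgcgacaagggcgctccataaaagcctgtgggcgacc
Sst: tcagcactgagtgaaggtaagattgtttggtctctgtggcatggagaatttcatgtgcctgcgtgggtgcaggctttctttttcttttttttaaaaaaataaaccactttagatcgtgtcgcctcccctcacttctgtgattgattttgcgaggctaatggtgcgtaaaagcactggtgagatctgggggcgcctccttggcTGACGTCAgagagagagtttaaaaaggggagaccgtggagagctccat
Cartpt: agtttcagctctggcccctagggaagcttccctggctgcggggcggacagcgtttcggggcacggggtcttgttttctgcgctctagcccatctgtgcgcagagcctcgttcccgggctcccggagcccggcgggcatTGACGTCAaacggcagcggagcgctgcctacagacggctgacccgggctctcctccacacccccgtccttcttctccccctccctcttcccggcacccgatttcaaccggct
The first base of the element lay at -48 in Sst and at -112 in Cartpt, counted from the transcript start. RefSeq gave windows of 250 bases before to 50 after the start for 9 of the 10 genes, with 2 starts for Adcyap1, and 588 of 32851 such windows (1.79%) hold the element. The shorter letters TGACG, on either strand and overlapping the full element where both occur, were found in windows of 8 members and in 20.8% of all windows. The Npy window holds neither. Whether these letters are bound in these cells was not measured, and of the pair that hold the full element Sst was among the most abundant members and Cartpt among the least.

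Tac1, the precursor of substance P and neurokinin A, stood at 77.7, 2.1, 14.8, 18.8, 41.3 and 9.8 scaled FPKM in axonal libraries 1 to 6. In somatodendritic libraries 1 to 6 it stood at 7.1, 17.2, 34.4, 0, 0 and 18.6. It was above 0 in 6 of 6 axonal and 4 of 6 somatodendritic libraries, and both the highest and the third lowest of the 12 values belong to axonal libraries. Its means were 27.4 ± 28.0 in axonal libraries and 12.9 ± 13.3 in somatodendritic libraries (SD, n = 6 each). Tac1 has 5 annotated transcripts, and its implied fragments did not come out whole.

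Adcyap1, the precursor of PACAP, a peptide that raises cyclic AMP in its target cells, was the only member other than Npy above 0 in all 12 libraries. In axonal libraries 1 to 6 it stood at 46.5, 12.0, 11.9, 7.0, 2.2 and 16.1 scaled FPKM, and in somatodendritic libraries 1 to 6 at 7.0, 5.4, 9.1, 8.2, 1.8 and 13.2. Axonal replicate 1, the deepest library, had the highest value and held 79.4% of the 131 axonal fragments. Weighted by depth, the level was 27.2 in axonal libraries and 7.21 in somatodendritic libraries, and the axonal level was 10.3 without replicate 1. The unweighted means were 15.97 ± 15.7 in axonal libraries and 7.46 ± 3.82 in somatodendritic libraries (SD, n = 6 each).

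Penk, the precursor of the enkephalins, which inhibit pain signalling through opioid receptors, stood at 18.7, 0, 0, 5.1, 12.2 and 33.7 scaled FPKM in axonal libraries 1 to 6. In somatodendritic libraries 1 to 6 it stood at 5.7, 1.9, 14.3, 0, 5.4 and 8.2. Axonal replicates 1 and 6 were the 2 highest of the 12, and 2 other axonal libraries were at 0. Its means were 11.6 ± 13.04 in axonal libraries and 5.93 ± 5.04 in somatodendritic libraries (SD, n = 6 each). Penk was the only member with an overlapping gene, A830012C17Rik, which was listed at 0 in all 12 libraries.

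The remaining members were lower, and most of their values rest on few fragments. Cck, the precursor of cholecystokinin, was above 0 in 5 of 6 libraries of each compartment, on 1 to 3 fragments in each. Its means were 7.81 ± 7.44 scaled FPKM in axonal libraries and 8.45 ± 8.62 in somatodendritic libraries (SD, n = 6 each). Nts, the precursor of neurotensin, stood at 16.5, 3.6, 0, 3.1, 0 and 5.2 in axonal libraries 1 to 6 and at 7.1, 0, 6.5, 14.6, 19.3 and 0 in somatodendritic libraries 1 to 6. The 4 libraries of each compartment that listed Nts overlapped in level, and 84.0% of its 25 axonal fragments came from replicate 1. Cartpt was above 0 in 4 of 6 axonal libraries, at 5.3 to 7.0, and in 2 of 6 somatodendritic libraries, at 4.8 and 3.2. These rest on 10 fragments over the axonal and 3 over the somatodendritic libraries.

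Calca encodes calcitonin and the calcitonin gene-related peptide, which motoneurons and peptidergic sensory neurons are known to make. It was listed above 0 in 3 of 6 libraries of each compartment. Its highest values were 7.4 scaled FPKM in axonal libraries and 11.9 in somatodendritic libraries, and the other 3 of each group were at 0. Calcb, which encodes a second form of that peptide, was listed at 0 in all 12 libraries. Gal, the precursor of galanin, was found in axonal replicate 1 alone, at 1.3 on 1 fragment, and was listed at 0 in the 5 other axonal and all 6 somatodendritic libraries. With 1 fragment in the deepest library, no difference in Gal was detectable at this depth.

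**Figure D2:**
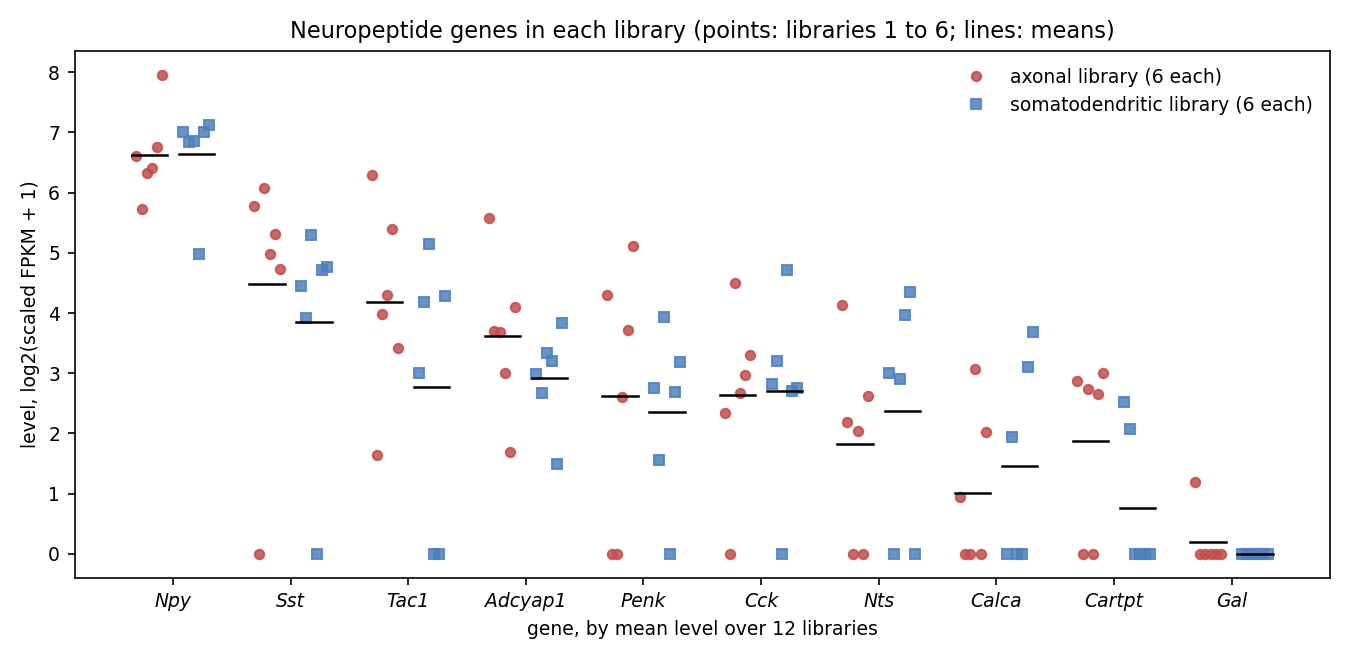
Level of each of the 10 genes as log2(scaled FPKM + 1) (y axis) by gene (x axis), with 1 point per library for 6 axonal (red circles) and 6 somatodendritic (blue squares) libraries and lines at the means. The groups overlap for each of the 9 genes tested. The mean of Npy lies above those of the other members in both groups, while single points of other members exceed the lowest points of Npy.

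By mean level the axonal order was Npy, Sst, Tac1, Adcyap1, Penk, Cck, Nts, Cartpt, Calca and Gal, and the somatodendritic order was Npy, Sst, Tac1, Cck, Nts, Adcyap1, Penk, Calca, Cartpt and Gal. Of neighbours in these orders, Npy and Sst in somatodendritic libraries were the only pair whose means differed by more than the sum of their SDs. Summed over the 10 genes, the level was 69.6 to 357.1 scaled FPKM in axonal libraries, with a mean of 220.8 ± 105.6, and 78.5 to 223.2 in somatodendritic libraries, with a mean of 177.5 ± 52.7 (SD, n = 6 each). Npy made up 29.9% to 74.5% of this sum in axonal libraries and 38.8% to 68.7% in somatodendritic libraries. The lowest sums were in axonal replicate 2 and somatodendritic replicate 4, and in each of these libraries 6 of the 10 genes were at 0.

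**Figure D3:**
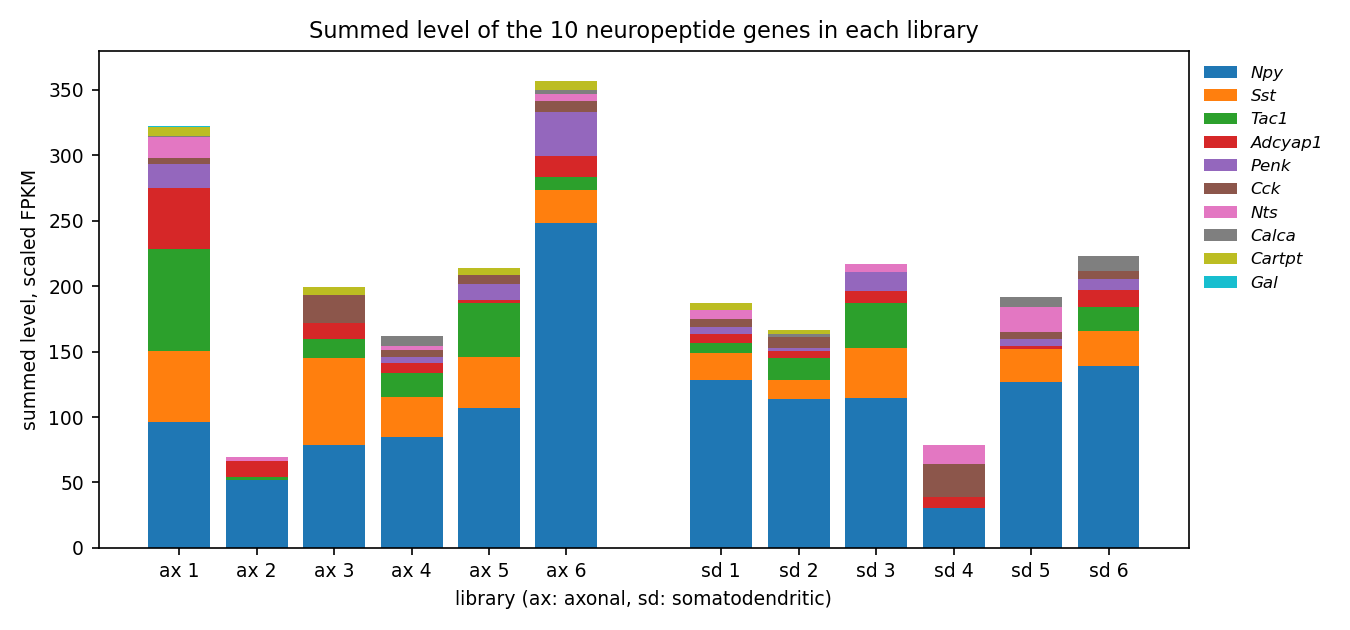
Summed level of the 10 genes in scaled FPKM (y axis) in each axonal (ax) and somatodendritic (sd) library (x axis), divided by gene. Npy is the largest part in all 12 bars, though on 1 fragment in somatodendritic replicate 4. Axonal replicate 6 has the highest sum, 357.1, and axonal replicate 2 the lowest, 69.6.

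The comparison of axonal with somatodendritic libraries asks which neuropeptide mRNAs differ between the compartments. None of the 9 members tested passed the threshold: with limma, 0 of 9 had an adjusted p below 0.05 (Benjamini-Hochberg over 13914 genes), and 0 had an unadjusted p below 0.05. The exact rank-sum test called 0 too, but with 6 against 6 libraries its smallest p is 0.00216, and over the genes whose groups do not overlap the smallest adjusted p is 0.304, which leaves the test unable to pass the threshold for any gene. Over all genes 0.00719% were called, which was a single gene, Fanci, named after its values were seen. Fanci, a DNA repair gene, averaged 193.8 ± 128.1 scaled FPKM in axonal libraries and 0.381 ± 0.450 in somatodendritic ones, with an adjusted p of 0.00244 by limma (SD, n = 6 each). At an unadjusted p below 0.05 there were 8.9% of all genes. No member had groups that did not overlap, against 0.712% of all genes. The count of called genes over the whole table was 11 when axonal replicate 6 was left out, 3 when axonal replicate 1 was, 2 when axonal replicate 2 was and 2 when axonal replicate 4 was. No member was called in any of these.

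The intervals of the differences were wide for most members. On the log2(scaled FPKM + 1) scale, where differences between low values are compressed, Tac1 had the largest difference, 1.40 (95% interval -0.62 to 3.43, limma adjusted p = 0.680). Cartpt differed by 1.11 (-0.42 to 2.65, limma adjusted p = 0.666), Adcyap1 by 0.70 (-0.53 to 1.94, adjusted p = 0.740), Sst by 0.62 (-1.50 to 2.75, adjusted p = 0.868) and Penk by 0.27 (-1.68 to 2.22, adjusted p = 0.943). Npy had the narrowest interval of the 9, with a log2 difference of -0.0066 (-0.84 to 0.83, limma adjusted p = 0.996). The Npy difference was -0.27 without axonal replicate 6 and -0.34 without somatodendritic replicate 4, but 0.17 without axonal replicate 2. Cck differed by -0.07 (-1.72 to 1.58, adjusted p = 0.989), Calca by -0.45 (-2.13 to 1.23, adjusted p = 0.882) and Nts by -0.54 (-2.44 to 1.37, adjusted p = 0.873). Of the 9 values 5 lay above 0 and 4 below, with a median of 0.27 against 0.18 over all genes tested. A difference that misses the threshold does not show that the compartments are alike.

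**Figure D4:**
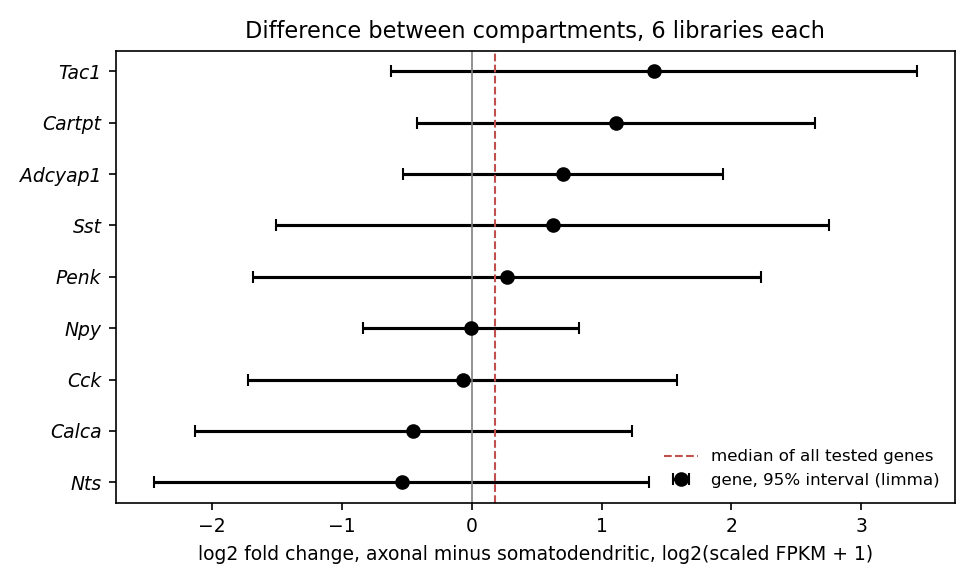
Difference between compartments as log2 fold change, axonal minus somatodendritic (x axis), for the 9 tested genes (y axis), with 95% limma intervals; dashed, the median of all tested genes. All 9 intervals include 0, and that of Npy, -0.84 to 0.83, is the narrowest.

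Within the sets of replicates that differ in short non-coding RNA, several members had differences of opposite sign. Among replicates 3 to 6 alone, the log2 difference was 2.10 for Cartpt, 1.92 for Tac1, 1.58 for Sst and 0.82 for Cck. Among replicates 1 and 2 alone, it was -0.86 for Cartpt, 0.37 for Tac1, -1.29 for Sst and -1.84 for Cck. The limma standard errors of these 4 were 0.74 to 1.15 in replicates 3 to 6. In replicates 1 and 2, with 2 libraries of each compartment, they were 0.99 to 2.10. Sst, Cck and Cartpt were at 0 in axonal replicate 2, which at 3 fragments allows up to 21.0, 18.4 and 14.3 scaled FPKM. Their highest values in somatodendritic replicates 1 and 2 were lower, at 20.8, 8.2 and 4.8. Cartpt was at 0 in somatodendritic replicates 3 to 6, where that limit was 12.95 to 58.8, above its highest axonal value of 6.98. At this depth the signs for these members are not settled. Adcyap1 was 0.15 in replicates 3 to 6 and 1.81 in replicates 1 and 2, and Nts was -1.64 in replicates 3 to 6 and 1.66 in replicates 1 and 2. Nts too was at 0 in some libraries, axonal replicates 3 and 5 and somatodendritic replicates 2 and 6. Npy was 0.37 in replicates 3 to 6 and -0.77 in replicates 1 and 2. No member was called in either set by limma. In replicates 3 to 6, 1 member had an unadjusted limma p below 0.05 (0.017), as had 867 of all 13914 genes. Whether the sets differ from each other was not tested.

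The members' highest axonal values fell in 4 libraries. Axonal replicate 1 had the highest axonal value of Tac1, Adcyap1, Nts and Gal, and axonal replicate 6 that of Npy, Penk and Cartpt. Sst and Cck were highest in axonal replicate 3 and Calca in axonal replicate 4. Axonal replicates 1 and 6 were high in Vgf, a granule protein and precursor of further peptides, at 493.5 scaled FPKM in axonal replicate 1 and 155.4 in axonal replicate 6. The 4 other axonal libraries had 16.4 to 44.7 and the 6 somatodendritic libraries 28.4 to 94.6. Pdyn, the precursor of the dynorphin opioid peptides, stood at 16.7 in axonal replicate 1 and 7.27 in axonal replicate 6, at 1.54 to 2.08 in the 4 other axonal libraries, and at 0 to 1.74 in somatodendritic libraries. The summed inhibitory neuron markers were 251.5 in axonal replicate 1 and 326.2 in axonal replicate 6, and 78.4 to 155.6 in the 4 other axonal libraries. The summed astrocyte and radial glia markers were 259.7 in axonal replicate 1 and 208.1 in axonal replicate 6, and 680.5 to 955.6 in the 4 others. Other lists did not set these libraries apart. The summed excitatory interneuron markers were 51.9 in axonal replicate 1 and 65.4 in axonal replicate 6, and 27.9 to 67.2 in the 4 others. The summed motoneuron markers were 37.1 and 53.9 in these libraries, and 32.0 to 60.7 in the 4 others. The part of cell makeup in the members' values was not tested.

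Other neuropeptide precursors were sparse. Of 43 listed, 23 were at 0 in all 12 libraries, among them Tac2, Vip, Avp and Oxt, and 6 passed the filter on low values. Pnoc, the precursor of nociceptin, was the highest, at 24.0 ± 23.9 scaled FPKM in axonal libraries and 17.7 ± 5.51 in somatodendritic libraries (SD, n = 6 each). None of the 6 was called. Pdyn had a log2 difference of 1.73 (limma adjusted p = 0.415) and Nppc, the precursor of C-type natriuretic peptide, one of -1.61 (adjusted p = 0.540).

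Of 27 neuropeptide receptor genes found, 11 were tested and 0 were called, with 5 log2 differences above 0, 6 below and a median of -0.27. Adcyap1r1, the receptor for PACAP, was the most abundant, at 8.39 to 42.0 scaled FPKM in axonal libraries and 22.2 to 53.8 in somatodendritic libraries. Sort1, a sorting receptor that binds neurotensin, stood at 5.41 to 18.2 in axonal libraries and 0 to 10.2 in somatodendritic libraries. The somatostatin receptor Sstr2 reached 4.63 in axonal libraries and 12.4 in somatodendritic libraries, and the neuropeptide Y receptor Npy1r 6.60 in axonal libraries and 5.60 in somatodendritic libraries.

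Genes that process precursors and build granules ranged widely in level. All 19 processing and granule genes were tested, 0 were called by limma, and 9 differences lay above 0 and 10 below, with a median of -0.02. Scg5, a chaperone of the prohormone convertase Pcsk2, stood at 78.0 to 201.2 scaled FPKM in axonal libraries and 99.8 to 174.3 in somatodendritic libraries. Cpe, the carboxypeptidase that trims peptide ends, stood at 89.9 to 135.5 in axonal libraries and 74.3 to 155.5 in somatodendritic libraries. Pcsk1, a prohormone convertase, was low, at 2.74 ± 4.43 in axonal libraries and 0.798 ± 0.969 in somatodendritic libraries (SD, n = 6 each), and above 0 in 3 of 6 libraries of each. The granule protein Chgb stood at 30.8 to 124.3 in axonal libraries and 44.0 to 79.6 in somatodendritic libraries. Of 8 tested peptidases that degrade peptides, 6 differences lay above 0 and 2 below, with a median of 0.53, and 0 were called. Among them Ece1 reached 63.7 in axonal replicate 2, Ide 41.6 and Rnpep 28.5 in that library, all the highest of the 12, while Thop1 was 2.15 to 14.5 in axonal libraries and 0 to 24.3 in somatodendritic libraries. At an unadjusted p below 0.05, limma gave 2 of the 6 other precursors, 1 of the 11 receptors, 0 of the 19 processing genes and 0 of the 8 peptidases.

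**Figure D5:**
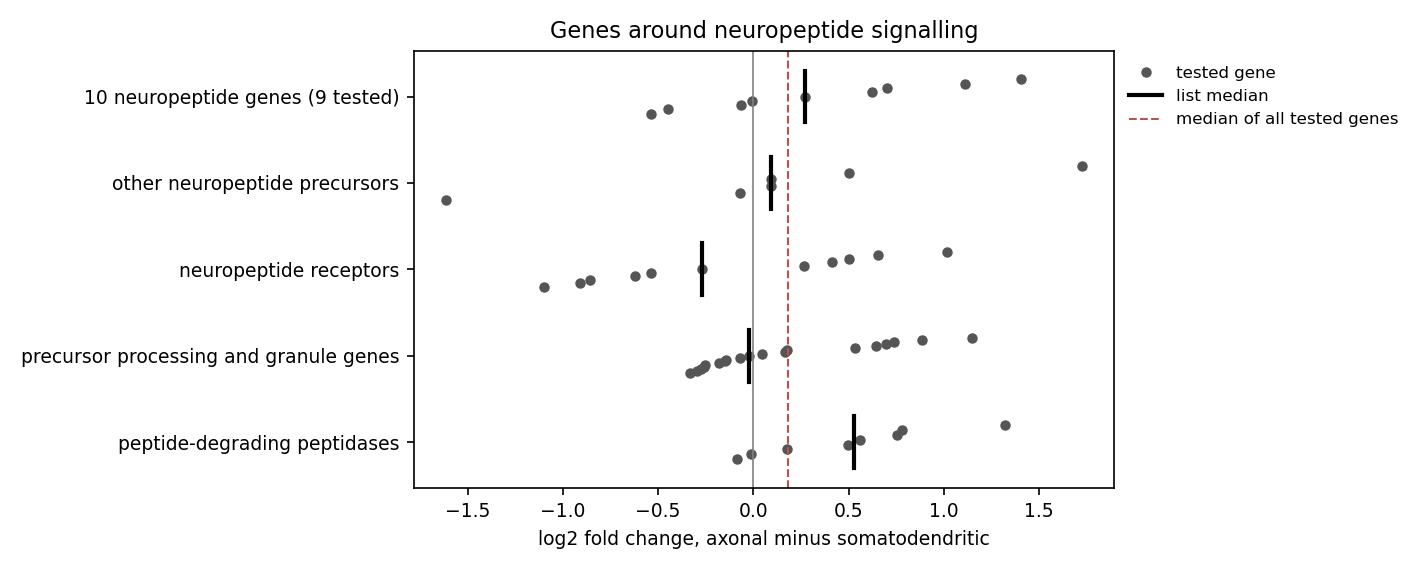
Log2 fold change, axonal minus somatodendritic (x axis), of each tested gene in 5 lists (y axis); bars are list medians and the dashed line is the median of all tested genes, 0.18. Points of each list lie on both sides of 0, and none was called.

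Genes listed as markers of cells other than neurons were detected on both sides. The 12 astrocyte and radial glia markers, led by Vim, Fabp7, Slc1a3 and Glul, summed to 208.1 to 955.6 scaled FPKM in axonal libraries and 317.7 to 445.7 in somatodendritic libraries. The 8 fibroblast and mural markers summed to 28.5 to 325.4 in axonal libraries and 8.59 to 33.7 in somatodendritic libraries. Acta2, the actin of smooth muscle cells, and Tagln made up most of that sum, with a log2 difference of 2.58 for Acta2 (limma adjusted p = 0.315), while Dcn was at 0 in all 12 libraries. Col1a1 averaged 2.12 in axonal libraries and 0.484 in somatodendritic libraries. The means of Col1a2, Col3a1, Lum and Pdgfrb were 0.115 to 0.411 in axonal libraries and 0 to 0.453 in somatodendritic libraries. Which cells these markers came from was not tested, nor was the part of such cells in the neuropeptide levels.

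For the 5 members above 0 in at least 10 of 12 libraries, the most similar genes were sought among the 7489 protein-coding genes whose mean was 5 scaled FPKM or more. Over 12 libraries on the log scale, Pearson's r was 0.94 between Tac1 and Ewsr1, 0.98 between Sst and Cpne8, 0.95 between Npy and Slu7, 0.88 between Cck and Fam53c, and 0.84 between Adcyap1 and Pcp4l1. The next in likeness were Unc50 and Dync1li2 for Tac1, Shfm1 and Rgs10 for Sst, Grik3 and Tmem59l for Npy, Gtf3c5 and Sfxn1 for Cck, and Fip1l1 and Cwc22 for Adcyap1. These are descriptions: the points share their libraries and depth, and for Tac1, Sst and Cck they include 2 libraries in which the member was at 0. They are also the highest of 7489 correlations per member over 12 libraries, and such a selection alone yields high values. Among the members themselves the highest r over the same 12 libraries was 0.79 between Npy and Penk, followed by 0.69 between Sst and Npy, 0.68 between Tac1 and Sst, and 0.67 between Gal and Adcyap1, where Gal was above 0 in 1 library.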

How the data were processed

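Total RNA of 6 axonal and 6 somatodendritic libraries was profiled, grouped and numbered by the sample titles. The authors deposited FPKM values with lower and upper confidence bounds per gene, in the Cufflinks gene table layout, per the file headers. The submitters' processing notes name Cufflinks 2.2.1, FastQC 0.10.1 and the build GRCm38. The sources used here do not give the annotation release, the strand or the handling of reads with several matches. A large share of mitochondrial or short non-coding RNA lowers the FPKM of all other genes in a library. All 39174 genes were read in, with no filter on their quantification status.

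Each library was divided by its median-of-ratios factor, taken from the 5607 genes that no library listed at 0. The 13914 genes with a mean deposited FPKM of at least 1 were kept, which left out Gal. The test was limma 3.58.1 (R 4.3.3), two-sided, on log2(scaled FPKM + 1), with trend and robust moderation, no term other than compartment, and Benjamini-Hochberg adjustment at 0.05.

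Implied fragments are (2 FPKM / (upper bound - FPKM)) squared, an inference from the deposited bounds. Over genes with 1 transcript and few fragments, 65.7% to 79.5% of values per library came out whole within 0.02. For Tac1, Penk and Calca, with several transcripts, the numbers were mostly not whole and are effective ones, and no limit for a value of 0 is given. Cck, Adcyap1, Cartpt and Gal also have several transcripts, but their numbers were whole within 0.02, except for Adcyap1 in axonal replicate 1. Counting intervals at 95% and the limit of 3 fragments cover counting error only.

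The members and gene lists were chosen with earlier results of these data known. Named were all members, up to 4 of the most abundant genes of each list described, genes most correlated with the members, genes overlapping a member, and Smn1. Lists of sensory neuron, oligodendrocyte, Schwann cell, microglia and endothelial markers were also drawn up and are not described. Other listed genes, such as Pcsk1, Pcsk2, Calcb and some cell type markers, were named outside this rule. Alternatives changed the scaling, pseudocount, filter, test, block and libraries used. Slc18a3 and Galr3 were not analysed here.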

Additional observations from a re-analysis of the deposited data

Results flagged for a closer look

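In 18 groups of 6 libraries (9 members in each compartment), 3 held a library far from the other 5 on the log scale, by Dixon's criterion at the 95% level, which sets the gap to the nearest library against the whole range. Chance gives about 1 such group in 20 where values are normal and equally precise. That rate does not apply here, since each of the 3 flagged values is 0 or rests on 1 fragment. Sst was listed at 0 in axonal replicate 2 and at 0 in somatodendritic replicate 4, where the other libraries of each compartment were above 0. Npy was at 30.4 scaled FPKM in somatodendritic replicate 4, on 1 implied fragment, with a 95% counting interval of 0.770 to 169.5 that includes the 5 other somatodendritic values.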

How the results depend on the processing

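No member was called under any alternative. The count of called genes, 1 in the fit reported, was 3 with a pseudocount of 0.1, 3 with plain moderation, 5 with array weights, 0 with the exact rank-sum test (which could call none), 6 with the split of replicates 1 and 2 from 3 to 6 as a term, 6 with replicates 3 to 6 only, 0 with replicates 1 and 2 only, 8 without axonal replicates 1 and 2, and 0 without axonal replicate 2 and somatodendritic replicate 4 (the last chosen after seeing the data). Leaving out 1 library at a time gave 1 to 11. Same-numbered libraries correlated at -0.00045 to 0.242 in their deviations from the group means, with 1 of 6 pairs above 0.1 and 3 axonal and 2 somatodendritic libraries correlating best with their own number, so the numbers were not taken to pair the libraries, although replicates 1 and 2 differ from 3 to 6 in short non-coding RNA in both compartments. With the replicate block, 5 genes were called and no member. Log2 differences changed sign, none of them called before or after, for Sst with replicates 1 and 2 only (-1.29); for Npy with replicates 3 to 6 only (0.37) and without axonal replicates 1 and 2 (0.23); for Penk with a pseudocount of 0.1 (-0.16) and with replicates 1 and 2 only (-0.0014); for Cck with array weights (0.31), replicates 3 to 6 only (0.82), without axonal replicates 1 and 2 (0.66) and without axonal replicate 2 and somatodendritic replicate 4 (0.86); for Cartpt with replicates 1 and 2 only (-0.86); and for Nts with array weights (0.15) and replicates 1 and 2 only (1.66). The cause was not tested. Leaving out 1 library at a time gave log2 differences of 0.85 to 1.91 for Tac1, 0.89 to 1.49 for Cartpt, 0.31 to 1.09 for Adcyap1 (0.31 without axonal replicate 1), -0.86 to -0.00068 for Calca, -1.01 to -0.14 for Nts, -0.15 to 1.52 for Sst, -0.34 to 0.17 for Npy, -0.23 to 0.80 for Penk and -0.61 to 0.46 for Cck. The median of all genes moved by -0.18 with FPKM as deposited, -0.13 with a common sum and -0.18 with quantile normalization, and 5 members lay above 0 under each. Depth limits all members: Npy rests on 1 implied fragment in somatodendritic replicate 4, and a value of 0 in the shallowest library allowed up to 86.2 scaled FPKM of Sst.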
